A study of Homo sapiens with 46 samples.

Results

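The response shared by 11 peptide-morpholino chimeras was measured as the difference between their equally weighted mean and a control without morpholino, in 46 RNA-seq libraries of HEK293T cells, which were all the libraries of the series. HEK293T is an established human embryonic kidney line, here a derivative with an integrated recombination site, and its cells were transfected with 2 µM chimera for 48 h. Each chimera joined the presequence of yeast Cox4, a peptide that directs cargo into the mitochondrial matrix, to a morpholino directed against 1 mitochondrial mRNA: ND1, ND2, ND3, ND4L, ND5, CYTB, COX1, COX2, COX3, ATP8 or ATP6. ND2 and COX2 had 3 libraries and the other 9 treatments 4, so that 42 treated libraries faced 4 control libraries. The control cells received the presequence peptide in the buffer of the coupling reaction and the same delivery reagent, but no morpholino and no fluorescein label. Silencing of a mitochondrial frame and the presence of any morpholino therefore cannot be told apart in this contrast. Replicates 1 and 2 formed batch 1 and replicates 3 and 4 batch 2, each batch with 2 control libraries.

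Mitochondrial DNA codes for core subunits of the respiratory complexes, which are joined by subunits made in the cytosol. When mitochondrial translation or respiration is impaired, cells can respond through ATF4, a transcription factor of the integrated stress response that induces aminoacyl-tRNA synthetases and amino acid synthesis. They can also raise glycolysis, and glucose-6-phosphate is sensed by the transcription factor MondoA, which with its partner MLX activates TXNIP and ARRDC4. TXNIP and ARRDC4 are related alpha-arrestins, and TXNIP restrains glucose uptake.

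The morpholinos are shown because the question of a common response rests on how different they are. As written in the study's methods, 7 of the 11 pair without a mismatch with the mitochondrial transcripts of GENCODE release 29. Of these, 5 are given, 5′ to 3′, and capitals mark bases that pair with the start codon of the frame.
ND1: aggttggccatgggTAT
COX1: gtcaacggtcggcgaaCAT
COX2: cctacttgcgctgcatgtgcCAT
COX3: catgtgattggtgggtCA
ATP8: gccatacggtagtatttagttgg
The targets of these 5 lie within the 5′ ends of MT-ND1 (MT:3307-3323), MT-CO1 (MT:5904-5922), MT-CO2 (MT:7586-7608), MT-CO3 (MT:9208-9225) and MT-ATP8 (MT:8371-8393). The sequences written for ND2, ND3, ND4L and ATP6 differ from the mitochondrial sequence by 1, 3, 1 and 2 single-base edits and are shorter or longer than their stated spans, so they are not printed. The study's reagent checklist gives the first bases of each oligo and spells some of them differently, ND3, ND4L, ATP6 and COX2 among them, so that edits, lengths and GC contents hold for the spelling in the methods. The 11 written oligos are 17 to 26 bases long and their GC content ranged from 20.8% to 64.7%. No run of 3 bases occurred in all 11, and the longest run shared by any of the 55 pairs was 6 bases.

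The control libraries held 19944731 to 22664329 counted reads and the treated libraries 18876395 to 100698084. Genes of mitochondrial DNA took 4.12% to 4.96% of the counts in controls and 3.80% to 5.34% in treated libraries. Genes that HEK293 lines are known to express were present, with 10 of 11 at a median of at least 1 CPM over the treated libraries. CPM are counts scaled to a common library size. Elsewhere they include TMM normalisation, but the marker sums in this paragraph do not. The sum of the 11 HEK293 genes ranged from 1275 to 1454 in controls and from 1208 to 1492 in treated libraries. Of 8 fibroblast markers, 3 were at a median of at least 1 CPM over the treated libraries, led by COL1A1. The sum of the fibroblast markers, again without TMM normalisation, ranged from 29.9 to 37.0 CPM in controls and from 28.3 to 42.5 in treated libraries. On the same scale, markers of leukocytes summed to at most 2.54 CPM, of endothelium to at most 3.30 and of hepatocytes and cardiomyocytes to at most 1.52. In batch 2 the slopes of log2 level on log2 length were 0.0377 and 0.0586 in the controls against a treated median of 0.0106, though the treated libraries reached from -0.0384 to 0.0636. In batch 1 the control slopes were -0.0044 and 0.0013 against a treated median of -0.0095. Among the genes called below, the median length was 3670 bases for those higher in treated cells, 5001 for those lower and 3979 for all tested, with GC contents of 55.1%, 43.8% and 48.6%. After correction of each library for its length trend, 12 of the 53 genes called were no longer called: MTND2P28, MT-RNR1, MT-TY, MRPL24, FLRT2, DMD, SH3YL1, PPIB, EDF1, NPM3, TNNT1 and AC015813.6. With the trend on GC content removed, an alternative chosen after the data were seen, FLRT2 and AC015813.6 were no longer called.

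The mean contrast asked which genes differed between control and the average over chimeras that target different complexes, and a call in it does not by itself show a change after every chimera. In one edgeR quasi-likelihood fit, 53 of 20272 genes tested, or 0.261%, differed between the mean of the 11 treatments and control at an adjusted p under 0.05. Of these, 33 genes were higher in treated cells (0.163% of those tested) and 20 lower (0.0987%). Changes were small: the median absolute log2 fold change of the 53 was 0.23, and 22 reached 0.25. An unadjusted p under 0.05 was found for 2410 genes, 11.9% of those tested, 1248 higher and 1162 lower. All 53 genes had the same sign of the mean effect in each batch, but they were called on both batches together, so that this is a description and no replication. A test of the difference in effect between batches called 0 genes (0%), with 1002 at an unadjusted p under 0.05. Across the 10427 genes with at least 10 CPM, the mean effects of the batches correlated with r = 0.36, and across all genes tested with r = 0.054, as a description over genes, which are not independent replicates.

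TXNIP showed the clearest response. In the 4 control libraries TXNIP (ENSG00000265972; GRCh38 1:145992435-145996600, minus strand) was at 35.3, 33.0, 46.1 and 42.03 CPM, replicates 1 to 4. Treated libraries had a lowest value of 18.2, a median of 26.3 and a highest of 35.2. In both batches every treated library lay below both controls of its batch, with treated values of 18.2 to 26.9 in batch 1 and 22.8 to 35.2 in batch 2. The mean effect was a log2 fold change of -0.55 ± 0.055 (SE), a fall of 31.8% as the fit gives it, with an adjusted p of 1.4e-09 in edgeR. The effect was -0.56 ± 0.082 in batch 1 and -0.54 ± 0.079 in batch 2.

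ARRDC4 (ENSG00000140450; GRCh38 15:97960698-97973838, plus strand), the paralogue of TXNIP, fell as well. Its controls were at 59.4, 62.5, 64.9 and 68.9 CPM, and the treated libraries ranged from 38.4 over a median of 48.9 to 56.4. All 42 treated libraries were below all 4 controls. The log2 fold change was -0.39 ± 0.045 (SE; edgeR adjusted p = 1.1e-07), with -0.38 in batch 1 and -0.40 in batch 2. Separation of this kind was rare: control and treated libraries did not overlap within either batch, in the same direction, for 8 of the 20272 genes (0.0395%), and TXNIP, ARRDC4, CD63, LINC02001 and ZNF75A were those among them that passed the test.

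**Figure D1:**
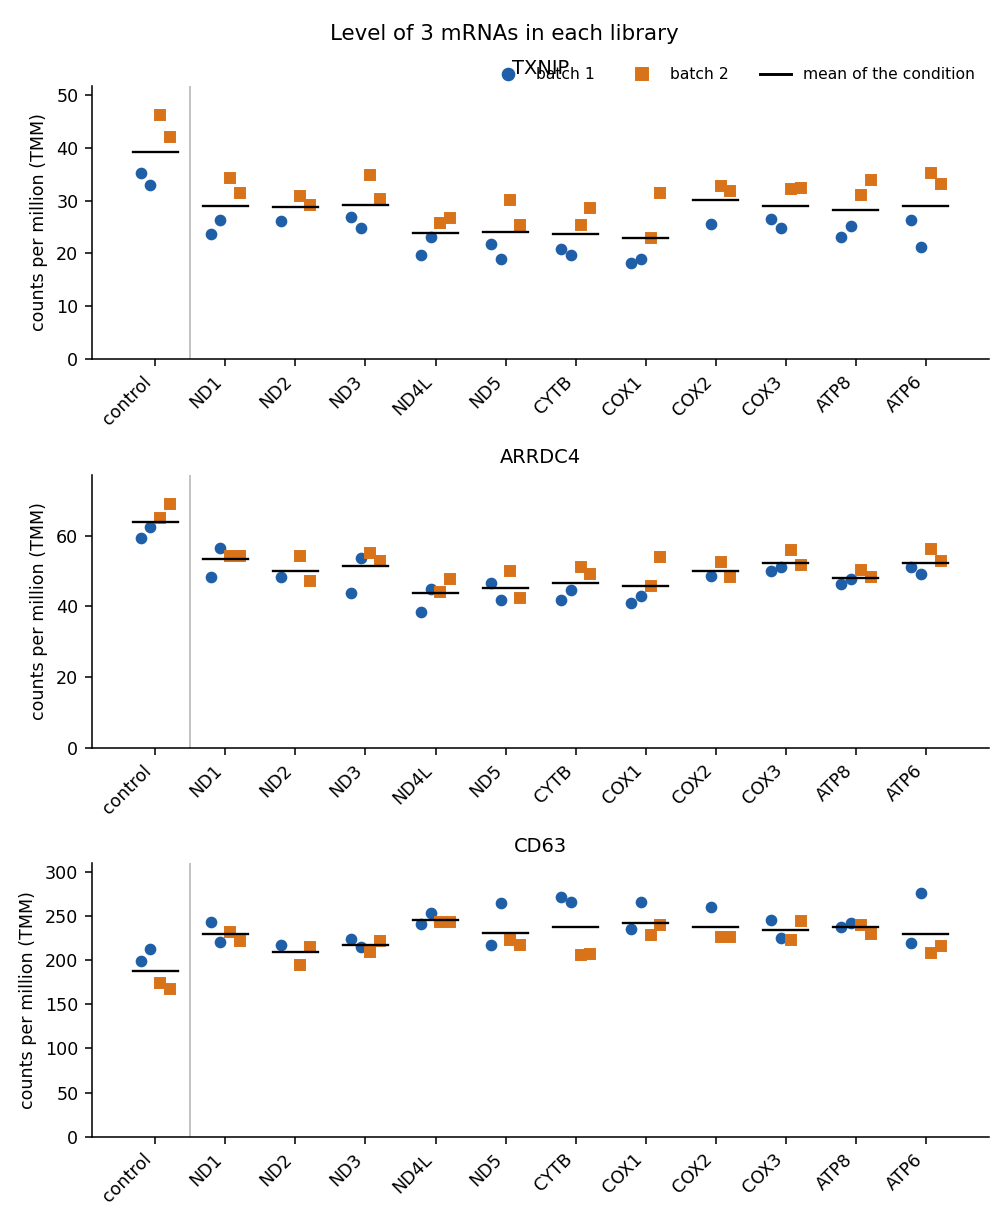
CPM (TMM-normalised, linear axis from 0) of TXNIP, ARRDC4 and CD63 in each of the 46 libraries by condition, with circles for batch 1, squares for batch 2 and a line at the mean of each condition. TXNIP and ARRDC4 lie below the controls of the same batch in every treated library, and CD63 lies above them.

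The 11 treatments were not alike in the size of this fall. TXNIP differed among the treatments (edgeR, adjusted p = 9.0e-04), and so did ARRDC4 (adjusted p = 0.048), within the 62 genes, 0.306% of those tested, that differed among the 11. Mean TXNIP levels were lowest after COX1 (22.9 ± 6.1 CPM, SD, n = 4), CYTB (23.6 ± 4.1, n = 4), ND4L (23.8 ± 3.1, n = 4) and ND5 silencing (24.02 ± 4.8, n = 4). The 5 other treatments with 2 libraries in each batch had means from 28.3 ± 5.0 (SD, n = 4) after ATP8 to 29.2 ± 4.4 (SD, n = 4) after ND3 silencing. ND2 (28.7 ± 2.4, SD, n = 3) and COX2 (30.02 ± 3.9, SD, n = 3) had 1 library in batch 1 and 2 in batch 2, where TXNIP was higher in control and treated cells, so their means are not ranked with the others. The same 4 treatments gave the lowest ARRDC4 levels, 43.7 ± 3.9 after ND4L, 45.2 ± 3.9 after ND5, 45.9 ± 5.7 after COX1 and 46.7 ± 4.3 after CYTB silencing (SD, n = 4), but ATP8 with 48.1 ± 1.6 (SD, n = 4) followed within their spread. The highest ARRDC4 level, 53.3 ± 3.5 (SD, n = 4), was found after ND1 silencing. These SDs include the difference between batches.

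Both genes are known targets of MondoA with MLX, which bind paired E-boxes. The list of the MondoA and ChREBP axis had 5 genes, all tested: 0 rose and 2 fell, TXNIP and ARRDC4, where 0.0987% of all genes tested fell. The 3 transcription factors of the list had log2 fold changes between -0.044 and -0.0012. As the lists were chosen with earlier results of these data known, the count of this list is a description only. The promoters of the 2 genes of the list that fell are shown. CD63, LINC02001 and ZNF75A also separated treated from control libraries in each batch, and their promoters are not shown. Each window runs from 250 bases before to 50 bases after a start in RefSeq, taken nearest the annotated 5′ end of the gene where RefSeq has several. For TXNIP (GRCh38.p14, 1:145996530-145996829, minus strand) capitals mark CACGNG, an E-box-like hexamer, found again after 5 bases. For ARRDC4 (GRCh38.p14, 15:97960453-97960752, plus strand) they mark the E-box CACGTG. That E-box is single, and the paired pattern had 0 matches in the ARRDC4 window.
TXNIP: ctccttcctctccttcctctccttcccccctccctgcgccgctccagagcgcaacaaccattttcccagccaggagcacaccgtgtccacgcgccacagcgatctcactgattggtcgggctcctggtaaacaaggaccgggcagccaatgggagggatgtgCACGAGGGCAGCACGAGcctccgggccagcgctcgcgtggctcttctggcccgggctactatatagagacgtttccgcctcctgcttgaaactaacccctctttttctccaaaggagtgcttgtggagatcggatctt
ARRDC4: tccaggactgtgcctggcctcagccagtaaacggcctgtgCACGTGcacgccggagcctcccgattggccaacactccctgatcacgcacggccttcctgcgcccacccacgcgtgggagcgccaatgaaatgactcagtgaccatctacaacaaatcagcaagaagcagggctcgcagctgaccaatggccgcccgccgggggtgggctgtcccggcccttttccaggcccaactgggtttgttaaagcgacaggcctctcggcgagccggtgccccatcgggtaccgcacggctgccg
On either strand, the E-box was found in 2 of 15 promoters of genes that fell, ARRDC4 and FLRT2, in 3 of 26 of genes that rose and in 1214 of 12333 of all genes tested with a promoter (9.84%). CACGNG with a second such hexamer after 5 bases, each in either orientation, is a pattern added after the data were seen. It was found in 1 promoter of a gene that fell, TXNIP, in 0 of genes that rose and in 20 of all (0.162%). These matches are descriptions of the windows and not sites.

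CD63 was the gene with the smallest p among those that rose. It codes for a tetraspanin of late endosomes, lysosomes and exosomes. CD63 (ENSG00000135404, chromosome 12) was at 199, 213, 174 and 167 CPM in the controls and at 195, 227 and 277 as the lowest, median and highest treated values. Within batch 1 the treated libraries ranged from 215 to 277 and within batch 2 from 195 to 244, above both controls in each case. The log2 fold change was 0.31 ± 0.049 (SE; edgeR adjusted p = 5.8e-04), 0.23 in batch 1 and 0.39 in batch 2, and the test between treatments gave an adjusted p of 0.59. Without control replicate 4 the adjusted p was 0.074. CD63 stood alone in its list of 58 lysosomal membrane proteins and hydrolases tested. In that list 1 rose and 0 fell, where 0.163% and 0.0987% of all genes tested did. The list's median log2 fold change was 0.013 beside -0.0036 for all genes. GUSB (0.13, adjusted p = 0.14) and CTSL (0.12, adjusted p = 0.20), which code for lysosomal hydrolases, did not pass. In the list of endosomal sorting and uptake, with 40 genes tested, and in that of autophagy, with 30, 0 genes passed and the medians were 0.0018 and 0.00027. The autophagy list did not hold ATG101, a gene of autophagy that was called higher (log2 fold change 0.31).

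Among the called genes with at least 5 CPM, the largest increases by fold were those of OGDHL and ANXA1. OGDHL, which codes for a relative of the oxoglutarate dehydrogenase of the citrate cycle, was at 7.48, 7.25, 8.60 and 6.89 CPM in controls and between 7.75 and 12.6 in treated libraries, median 9.71 (log2 fold change 0.37 ± 0.085, SE; edgeR adjusted p = 0.035). All treated libraries of batch 1 and 21 of 22 of batch 2 exceeded both controls of their batch. ANXA1, a phospholipid-binding annexin, was at 50.1, 63.1, 33.8 and 29.7 in controls and at 33.3 to 87.0 in treated libraries (0.37 ± 0.083; adjusted p = 0.035). Its level differed more between the batches than between the groups. Within batch 1, 18 of 20 treated libraries exceeded both controls, and within batch 2, 20 of 22.

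EML2, a microtubule-associated protein, was at 26.8, 25.1, 27.7 and 26.9 CPM in controls and at 26.2 to 47.5 in treated libraries, of which 40 exceeded all controls (log2 fold change 0.31 ± 0.056, SE; edgeR adjusted p = 0.0062). PROCR, the endothelial protein C receptor, had controls at 22.8, 23.2, 20.4 and 21.2 and a treated median of 26.6 (0.28, adjusted p = 0.012). SEMA6B, a transmembrane semaphorin, rose by 0.31, and SLC44A2, a choline transporter, by 0.21 on the log2 scale, with adjusted p of 0.035 and 0.020. SEMA6B also differed among the treatments (adjusted p = 0.048), from 14.9 ± 1.7 CPM (SD, n = 4) after ND3 to 20.1 ± 0.46 (SD, n = 4) after CYTB silencing, against 13.6 ± 0.84 (SD, n = 4) in control. TNNT1 (0.33), ATG101 (0.31), DRAP1 (0.28) and MYDGF (0.24) were likewise higher. For these 4 genes the controls of batch 2 were lower than those of batch 1: ATG101, a subunit of the autophagy-initiating ULK complex, was at 25.3 and 24.6 in batch 1 but at 16.0 and 14.2 in batch 2, where the treated libraries were at 18.2 to 24.3.

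Among enzymes that were called higher, PFKP codes for the platelet isoform of phosphofructokinase, which commits sugar to glycolysis. Its controls were at 321, 321, 307 and 299 CPM and treated libraries at 321 to 384, median 347, so that 40 of 42 exceeded all controls (log2 fold change 0.16 ± 0.034, SE; edgeR adjusted p = 0.033). HAGH, the glyoxalase that frees lactate from its glutathione adduct, rose by 0.26 (adjusted p = 0.030), and GSS, glutathione synthetase, by 0.18 (adjusted p = 0.035). PCCB, a mitochondrial carboxylase of propionate breakdown, rose by 0.16 (adjusted p = 0.039). OCIAD2, a mitochondrial membrane protein, rose by 0.26 (adjusted p = 0.034). None of these 5 genes was called without control replicate 4, where their adjusted p lay between 0.36 and 0.43.

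AARS, the cytosolic alanyl-tRNA synthetase, was also called higher. It was at 130, 125, 121 and 116 CPM in controls and at 125 to 154 in treated libraries, median 139 (log2 fold change 0.17 ± 0.038, SE; edgeR adjusted p = 0.035). MRPL24, a protein of the large mitochondrial ribosomal subunit, had controls at 66.3, 63.8, 64.1 and 65.4 and treated libraries at 62.3 to 86.9, of which 41 exceeded all controls (0.21 ± 0.048; adjusted p = 0.035). RRP1 (0.20) and NOP53 (0.22), which act in ribosome assembly, RUVBL2 (0.18), an ATPase of chromatin and snoRNP assembly, NPM3 (0.20), a nucleolar chaperone, and EDF1 (0.23), which binds collided ribosomes, were higher, with adjusted p from 0.033 to 0.049.

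Besides the alpha-arrestins, PNRC1, ZNF75A and NSUN6 were among the genes that fell. PNRC1, a nuclear receptor coactivator, was at 43.9, 41.6, 42.5 and 41.8 CPM in controls and at 31.9 to 42.2 in treated libraries, median 36.0, with 41 of 42 below all controls (log2 fold change -0.23 ± 0.044, SE; edgeR adjusted p = 0.012). ZNF75A, a zinc finger protein, had controls at 24.9, 24.9, 27.0 and 28.6 and a treated median of 21.8 (-0.27 ± 0.054; adjusted p = 0.013). NSUN6, an RNA cytosine methyltransferase, had controls at 23.95, 24.9, 24.2 and 25.8 and a treated median of 21.2 (-0.23; adjusted p = 0.029). These 3 genes separated most treated libraries from all controls.

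The homeobox genes HOXB4, HOXA13 and HOXB9 fell, a group that was noted after the values were seen. HOXB4 had controls at 16.8, 16.3, 15.2 and 18.1 CPM and a treated median of 13.7 (log2 fold change -0.28 ± 0.063, SE; edgeR adjusted p = 0.035). HOXA13 fell by 0.23 and HOXB9 by 0.18 on the log2 scale, both with an adjusted p of 0.035, while HOXA9 with -0.15 did not pass (adjusted p = 0.0595). Of 38 HOX genes tested, 3 fell, where 0.0987% of all genes tested did, and 0 rose, while 29 had a negative value (51.4% of all genes tested did) and the median was -0.091. PPP1R3E, a glycogen-targeting subunit of protein phosphatase 1, fell by 0.26 (adjusted p = 0.029) with 41 of 42 treated libraries below all controls. SESN3, a sestrin of nutrient sensing, fell by 0.19, FLRT2, a cell adhesion protein, by 0.19 and GORAB, a Golgi protein, by 0.33. SH3YL1 (-0.28), RSRP1 (-0.24) and KHDC4 (-0.17) completed the 15 lowest protein-coding genes. SH3YL1 had an effect of -0.09 in batch 1 and -0.45 in batch 2. The steepest fitted falls were those of poorly expressed genes, TDRD5 (-1.66, median of 2.5 reads a library) and LINC00846 (-1.51, median of 5 reads), and at such counts their size is uncertain.

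**Figure D2:**
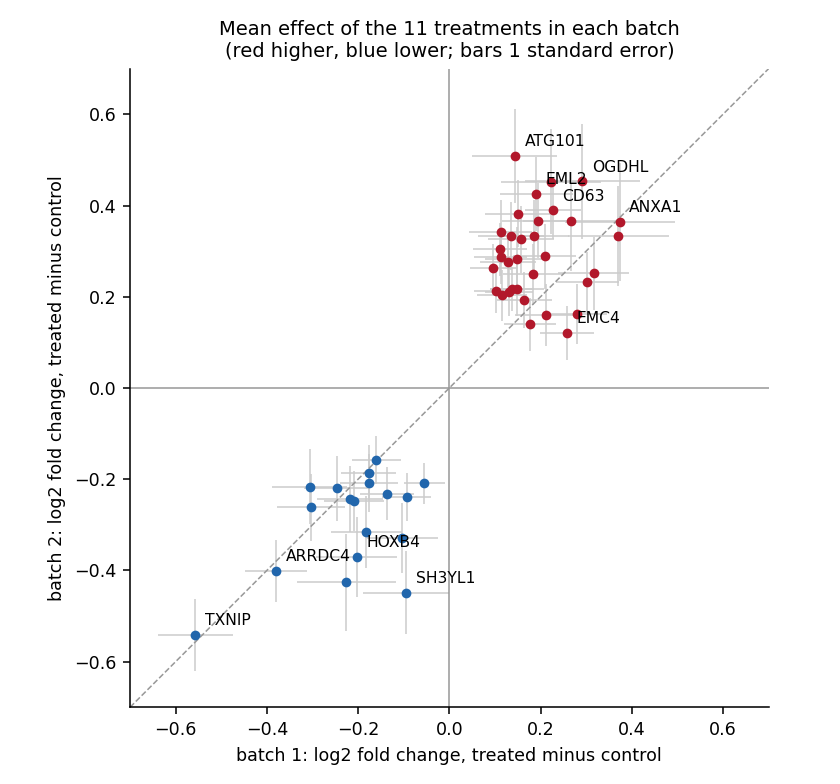
Log2 fold change (mean of the 11 treatments minus control) in batch 1 on the horizontal axis and in batch 2 on the vertical axis for the called genes with at least 5 CPM in control, with bars of 1 standard error, red for higher and blue for lower. The genes were called on both batches together, which favours the same sign in both; TXNIP (-0.56 and -0.54) and ARRDC4 (-0.38 and -0.40) lie on the dashed line of equal effects, and ATG101 (0.14 and 0.51) and SH3YL1 (-0.09 and -0.45) lie farther from it.

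The genes nearest the threshold differed little from one another. Just inside it were STC2 (log2 fold change 0.19), a secreted glycoprotein, GORAB (-0.33) and AC015813.6 (-0.22), a gene without an assigned symbol, each with an adjusted p of 0.049. Just outside were MEX3B (-0.21, adjusted p = 0.054), PFKM (0.13, adjusted p = 0.054), the muscle isoform of phosphofructokinase, and KCNC1 (-0.55, adjusted p = 0.055). KCNC1 was at 8.37 CPM in control replicate 1 and at 3.16 to 3.99 in the other controls, against 2.47 to 4.72 in treated libraries. Without control replicate 1 its edgeR adjusted p was 0.65. Over the 46 fits that left out 1 library its log2 fold change ranged from -0.70 to -0.16.

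Among RNAs of mitochondrial origin, MT-TY and MT-RNR1 were called higher in the mean, and the size of the difference was uneven among the treatments. MT-TY, the tyrosine tRNA (MT:5826-5891, on the strand opposite to the neighbouring MT-CO1), was at 11.9, 11.7, 13.6 and 13.2 CPM in controls and had a mean log2 fold change of 0.35 ± 0.075 (SE; edgeR adjusted p = 0.030). After COX1 silencing it reached 57.8 ± 8.2 (SD, n = 4), while the 10 other treatments had means of 13.2 to 15.9, against a control mean of 12.6 ± 0.97 (SD, n = 4). It differed among the treatments (adjusted p = 7.1e-29), and without the COX1 treatment the mean effect was 0.17 ± 0.070 (adjusted p = 0.29).

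MT-RNR1, the 12S rRNA of the small mitochondrial ribosomal subunit (MT:648-1601), was at 661, 662, 679 and 609 CPM in controls and at 517 to 1271 in treated libraries, median 752. It was highest after ATP8 (1099 ± 150, SD, n = 4) and ATP6 silencing (938 ± 89, n = 4), and its means after ND2 (541 ± 24, SD, n = 3) and ND3 silencing (644 ± 47, SD, n = 4) were below the control mean of 653 ± 30 (SD, n = 4). The mean effect was 0.22 ± 0.047 (SE; edgeR adjusted p = 0.029) and the difference among treatments had an adjusted p of 6.0e-17. Without the ATP8 treatment the mean effect was 0.17 with an adjusted p of 0.074. The libraries were enriched for polyadenylated RNA, so levels of rRNA and tRNA reflect the captured part.

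MTND2P28, a nuclear copy of MT-ND2 (GRCh38 1:629640-630683), was called higher as well (0.27 ± 0.055, SE; edgeR adjusted p = 0.021). Its controls were at 90.3, 96.1, 111 and 118 CPM. It reached 238 ± 37 (SD, n = 3) after ND2 and 149 ± 9.3 (SD, n = 4) after ND1 silencing, and 99.1 to 130 in the 9 other treatments (adjusted p among treatments 2.7e-17). Without the ND2 treatment the effect was 0.18 (adjusted p = 0.13). Reads of MT-ND2 and of this copy may be exchanged in counting, which was not tested. MT-ND2 itself was highest after ND2 silencing, at 4739 ± 727 (SD, n = 3) against 2278 ± 259 (SD, n = 4) in control.

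**Figure D3:**
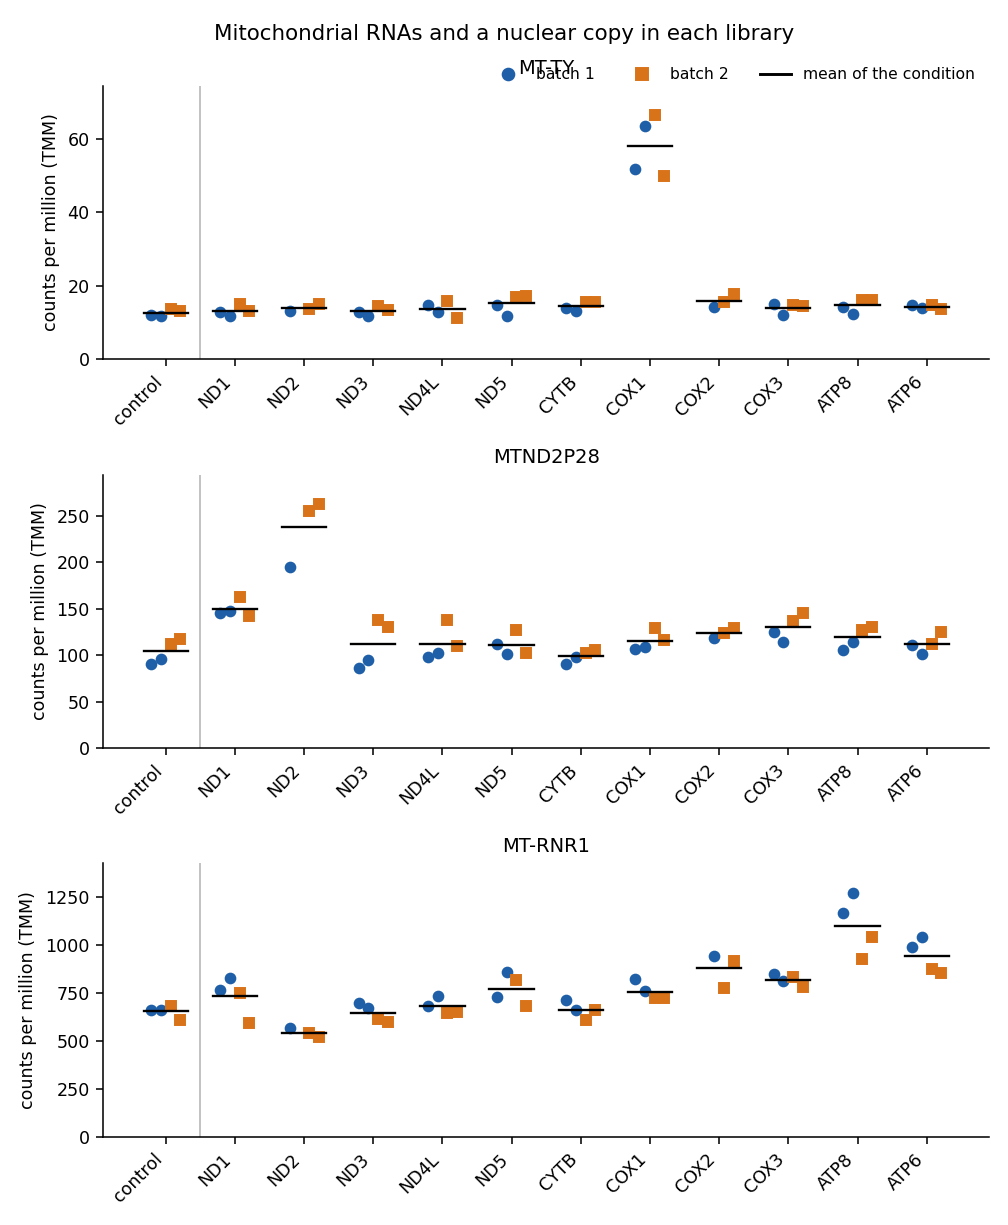
CPM (TMM-normalised, linear axis from 0) of MT-TY, MTND2P28 and MT-RNR1 in each library by condition, with circles for batch 1, squares for batch 2 and a line at the mean of each condition. MT-TY is high in the 4 COX1 libraries (mean 57.8), MTND2P28 in the 3 ND2 libraries (mean 238) and MT-RNR1 in the ATP8 libraries (mean 1099).

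The mRNAs of mitochondrial DNA did not move together in the mean contrast. Of 13 tested, 0 rose and 0 fell, with a median log2 fold change of 0.028. Among the 11 targeted frames the values ran from -0.14 ± 0.050 (SE) for MT-CO1 to 0.27 ± 0.095 for MT-ND3, with adjusted p of 0.21 and 0.19. MT-ND1 (0.11), MT-ND2 (0.13), MT-CO2 (0.031), MT-CYB (0.025), MT-ND5 (0.028), MT-ATP8 (0.066), MT-ATP6 (-0.017), MT-ND4L (-0.059) and MT-CO3 (-0.074) lay between, with adjusted p from 0.22 to 0.90. By contrast 11 of the 13 differed among the treatments, where 0.306% of all genes tested did. MT-CO1 was at 4755 ± 695 CPM after COX1 silencing against 12010 ± 643 in control (SD, n = 4), and MT-CO3 at 3770 ± 536 after COX3 silencing against 5305 ± 555 (SD, n = 4).

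Nuclear genes for translation and respiration had medians slightly above that of all genes, and of these lists 1 gene, MRPL24, passed the test. Of 79 cytosolic ribosomal proteins tested, 0 rose and 0 fell at the adjusted threshold, while 76 had a positive log2 fold change (48.6% of all genes tested did) and the median was 0.088 beside -0.0036 for all genes. RPS3 was at 1286, 1243, 1133 and 1136 CPM in controls and at 1186 to 1607 in treated libraries (0.18 ± 0.047, SE; edgeR adjusted p = 0.076), and RPL30 had a value of 0.25 (adjusted p = 0.13). Mitochondrial ribosomal proteins had a median of 0.063 over 82 genes, of which 68 had a positive value. MRPL24 was the 1 that rose, where 0.163% of all genes tested did. Nuclear subunits of complex I had a median of 0.090 over 37 genes, with 0 called, and those of complexes II to V 0.078 over 42, with 0 called. NDUFS6, a complex I subunit, was at 86.0, 86.4, 73.0 and 80.6 in controls and at 78.3 to 134 in treated libraries (0.34 ± 0.084; adjusted p = 0.0595), and COX4I1 of complex IV had 0.15 (adjusted p = 0.097).

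In these lists batch 2 gave larger medians than batch 1: 0.13 against 0.051 for complex I, 0.11 against 0.073 for cytosolic ribosomal proteins and 0.082 against 0.037 for mitochondrial ribosomal proteins, each batch fitted alone. The counts of genes called depended on the setting: without the filter on low counts, 25 cytosolic ribosomal proteins, 8 complex I subunits and 8 genes of mitochondrial import, chaperones and proteases were called, among 320 of 47354 genes tested. With DESeq2 and a batch term, 7 proteasome subunits and 7 glycolysis genes were called, among 225 of 10839. With the trend on gene length removed, the medians were 0.055 for complex I, 0.066 for cytosolic and 0.019 for mitochondrial ribosomal proteins. Proteasome subunits (median 0.092 over 33 genes), which include PSMB7 (0.17, adjusted p = 0.0595), and mitochondrial import, chaperones and proteases (0.060 over 43), which include the protease LONP1 (0.17, adjusted p = 0.065), had 0 genes called. For ribosome biogenesis the median was 0.048 over 105 genes, and RRP1 was the 1 that rose, where 0.163% of all genes tested did. NOP53, called higher by 0.22, was not in that list. FBL, the fibrillarin of rRNA methylation, had 0.17 (adjusted p = 0.073). Assembly factors of the respiratory chain had a median of 0.035 over 54 genes, the citrate cycle and pyruvate entry 0.039 over 28 and factors of mitochondrial DNA expression 0.0038 over 45, with 0 called in each.

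In the ATF4-driven integrated stress response, 2 of 48 genes tested rose, AARS and STC2, where 0.163% of all genes tested did, 0 fell, and the median was 0.066. Other aminoacyl-tRNA synthetases of the list, SARS (0.14, adjusted p = 0.0595) and YARS (0.12, adjusted p = 0.11), did not pass. The unfolded protein response of the endoplasmic reticulum had a median of 0.017 over 23 genes and cytosolic heat shock proteins 0.016 over 16, with 0 called in both. Among 33 NRF2 targets and antioxidant enzymes 0 passed, with a median of 0.049. GSS, called higher by 0.18, was not in that list. HMOX1, haem oxygenase, was at 78.0, 98.0, 64.6 and 55.9 CPM in controls and at 47.0 to 134 in treated libraries (0.38 ± 0.11, SE; edgeR adjusted p = 0.11), so that its spread between libraries was wide. Interferon response and RNA sensing had a median of -0.039 over 31 genes with 0 called, and immediate early genes and ERK feedback -0.0077 over 33 with 0 called.

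Glycolysis and lactate genes had a median of 0.073 over 22, of which PFKP was the 1 that rose and 20 had a positive value (0.163% and 48.6% of all genes tested). ENO1, the major enolase, had 0.14 (edgeR adjusted p = 0.069) and ENO2 0.17 (adjusted p = 0.073). Hypoxia targets outside glycolysis had a median of -0.014 over 20 genes with 0 called.

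Apart from the MondoA axis, the gene lists with a median below 0 had no called member. Cholesterol synthesis and SREBP2 targets had a median of -0.059 over 26 genes, with SQLE at -0.13 (edgeR adjusted p = 0.17). For p53 targets the median was -0.078 over 25 genes (-0.085 to -0.039 with each control left out in turn), and SESN1 had -0.15 (adjusted p = 0.069). Replication-dependent histones had a median of -0.21 over 21 genes, at low and variable levels, since the lists' summed CPM ranged from 49.6 to 86.1 in controls and from 36.0 to 89.8 in treated libraries. Genes of S and G2/M phase had -0.034 over 40 (-0.045 to -0.021 with each control left out in turn), with PCNA at -0.12 (adjusted p = 0.11). Sphingolipid and phospholipid synthesis had -0.031 over 35, with SCD at -0.15 (adjusted p = 0.10). Pyrimidine and one-carbon metabolism had a median of 0.018 over 28 genes, with 0 called.

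**Figure D4:**
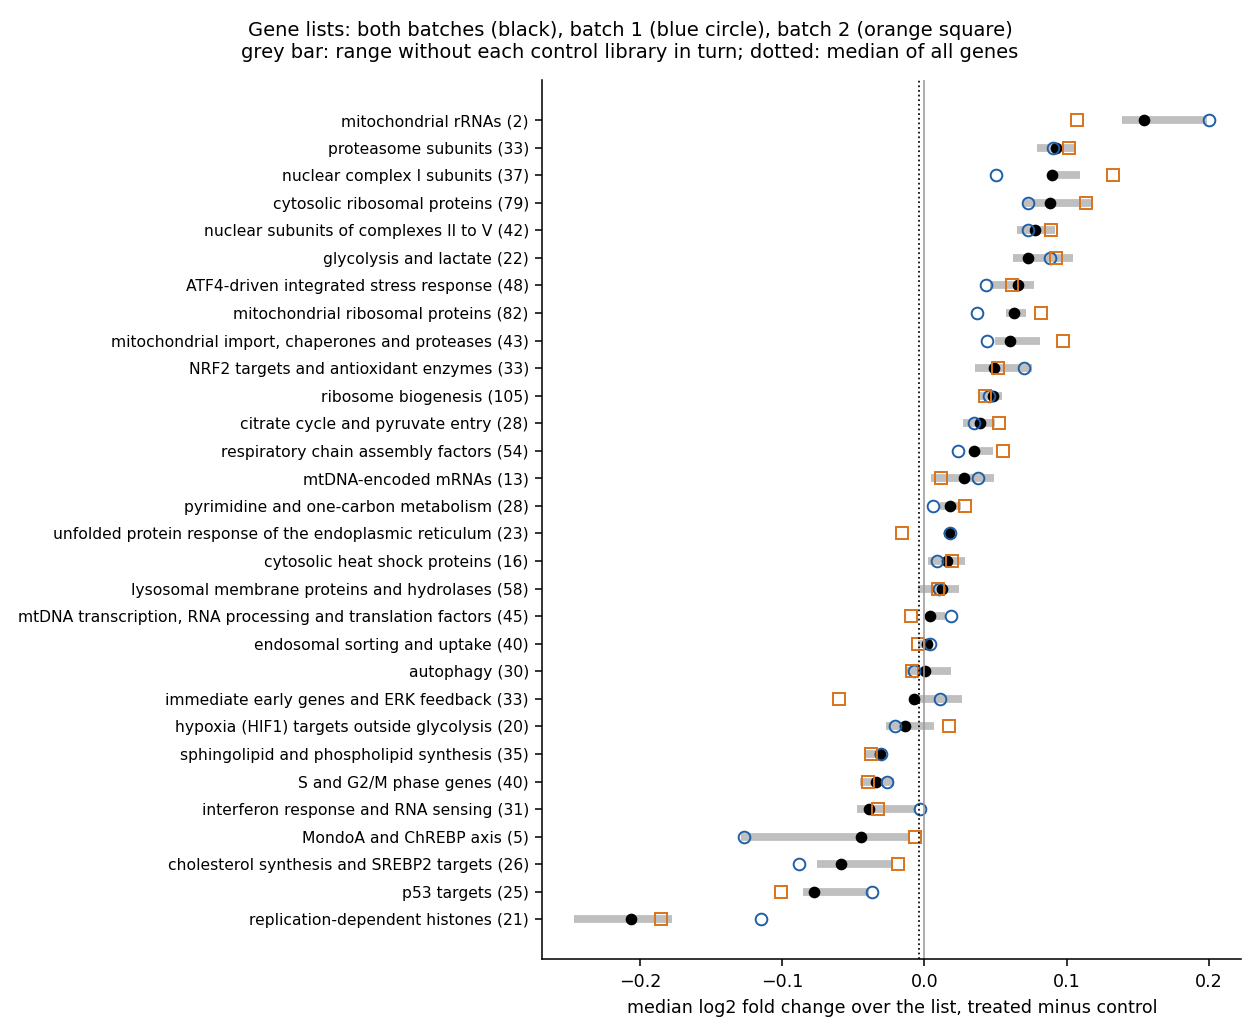
Median log2 fold change of each gene list (treated mean minus control; genes tested in parentheses) in both batches together (black), in batch 1 alone (blue circles) and in batch 2 alone (orange squares), with grey bars for the range when each control library is left out in turn and a dotted line at the median of all genes. Proteasome, complex I and cytosolic ribosomal lists lie near 0.09, and the histone list lies lowest at -0.21.

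The number of genes called depended on the 4 control libraries. Leaving out control replicates 1, 2, 3 and 4 in turn left 20, 11, 5 and 2 genes called, and 16, 9, 4 and 2 of these were among the 53. Leaving out any 1 of the 42 treated libraries gave 32 to 98 genes. TXNIP and ARRDC4 were called in all 46 fits that left out 1 library and in all 11 that left out 1 treatment, with log2 fold changes of -0.58 to -0.53 and -0.41 to -0.37 over the 46, and they were the 2 genes of the 53 called without each of the controls. Batch 1 alone gave 2 genes, both lower, and batch 2 alone 45 genes, of which 38 were higher. Without a batch term 1 gene was called, ARRDC4, and TXNIP had an adjusted p of 0.16.

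**Figure D5:**
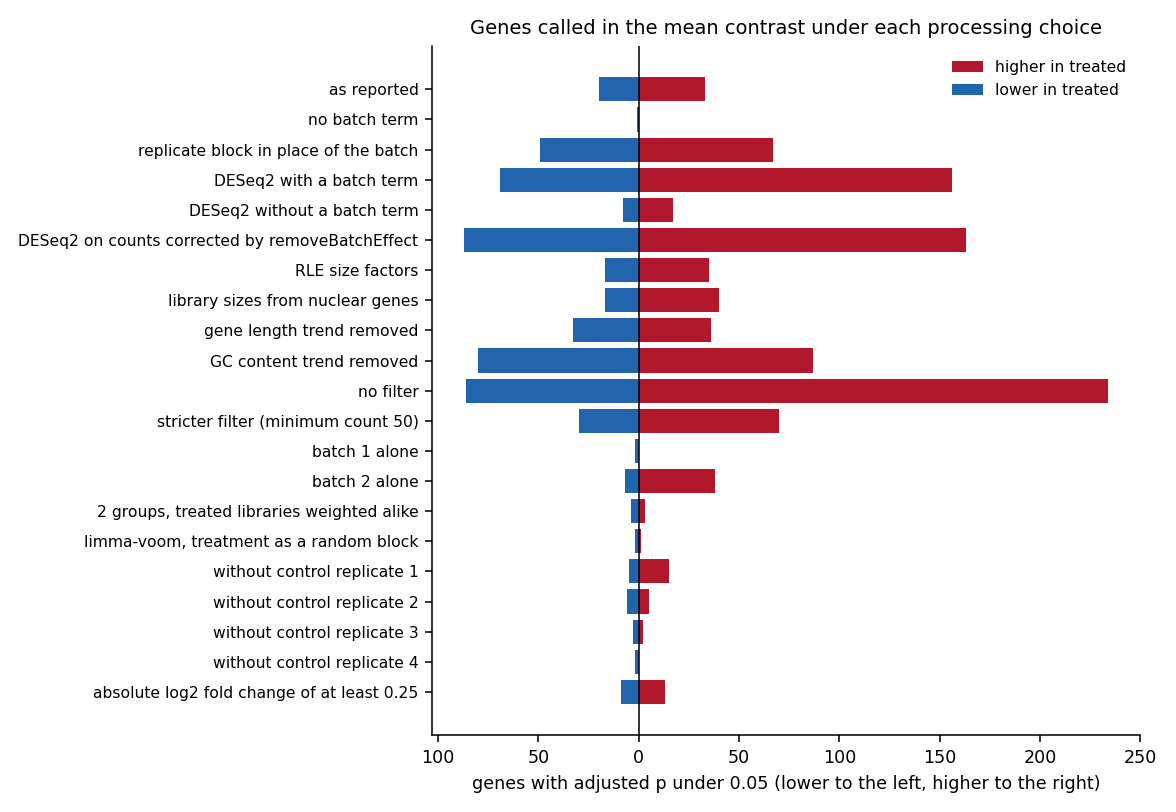
Number of genes called in the mean contrast, to the right for higher and to the left for lower in treated cells, under each processing choice and without each control library. The counts range from 1 without a batch term to 320 without the filter on low counts, and the reported setting gave 53.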

How the data were processed

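Raw gene counts of 46 poly(A)-enriched libraries were used, as the authors deposited them, with whole-number counts per gene for 58735 genes; per the submitters' processing notes the build was GRCh38.p12, and all gene IDs, starts and ends matched GENCODE release 29. The aligner, the counter and the use of strand are not given in the sources used here. The study's methods describe biological replicates prepared in 2 batches on different days. Genes were kept with filterByExpr (minimum count 10). CPM values are counts scaled to a common library size with TMM normalisation, apart from the sums of cell type markers, which were not TMM-normalised. edgeR 4.0.16 (R 4.3.3) fitted all 46 libraries with a term for each condition and for batch, and quasi-likelihood tests were adjusted by Benjamini-Hochberg over all 20272 genes tested. Standard errors were derived from the F statistic. Alternatives used limma 3.58.1, DESeq2 1.42.0 and other settings. The members and the 35 gene lists were chosen with earlier results of these data known. Named genes are the 15 highest and 15 lowest called protein-coding genes with at least 5 CPM, up to 3 called genes of other biotypes in each direction, up to 4 genes with the smallest p of each list, the targeted frames, the genes nearest the threshold and the 10 with the smallest p, though not every one of these is printed. Replicates of a group differed beyond counting noise in all 66 pairs (chi-square per degree of freedom 3.47 to 23.4). Depth was 18876395 to 100698084 counts. Promoters were matched by symbol to RefSeq for 12333 genes, with the window nearest the annotated 5′ end of the gene. Some sequences and genes are not reported here.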

Additional observations from a re-analysis of the deposited data

Results flagged for a closer look

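Of 93 sets of 4 values examined, 3 held a library that stood apart, where chance alone gives about 1 in 20. The total count of COX3 replicate 4 was 100.7 M, against at most 28.12 M in the other COX3 libraries. Genes of mitochondrial DNA took 4.86% of the counts in ATP8 replicate 4. The TMM factor of ND3 replicate 1 was 0.993.

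There were 6 genes called in the mean that also differed among the 11 treatments in edgeR's test of that difference, with adjusted p of 7.1e-29 for MT-TY, 2.7e-17 for MTND2P28, 6.0e-17 for MT-RNR1, 9.0e-04 for TXNIP, 0.048 for SEMA6B and 0.048 for ARRDC4.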

How the results depend on the processing

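The count of genes altered in the mean was 53. It was 1 without a batch term, 116 with a replicate block in place of the batch, 225 with DESeq2 and a batch term, 25 with DESeq2 without it, 250 with DESeq2 on batch-corrected counts, 167 with the GC content trend removed (chosen after seeing the data), 320 without a filter, 100 with a minimum count of 50, 2 in batch 1 alone, 7 with 2 groups weighted by library, 3 in limma-voom with treatment as a random block and 22 with an absolute log2 fold change of at least 0.25. It ranged from 2 to 98 when 1 library was left out (98 without ATP6 replicate 3, 80 without COX1 replicate 1, 32 without ND3 replicate 3) and from 21 to 121 when 1 treatment was: 121 without ND3, 30 without ND4L, 99 without ND5, 21 without CYTB, 28 without COX2, 28 without ATP8 and 86 without ATP6. RLE size factors gave 52, library sizes from nuclear genes 57, the length trend removed 69 and batch 2 alone 45. Why DESeq2 and edgeR differ was not tested. All 53 were also called with the replicate block, but the numbers were not taken as pairing libraries. In neither batch did the differences between replicates correlate above 0.1 for all pairs of conditions (46 of 66 for replicates 3 and 4, 13 of 45 for replicates 1 and 2). The median r was 0.16 for replicates 3 and 4 and -0.0056 for replicates 1 and 2. Whether the numbers pair libraries in batch 2 is therefore not settled. No sign of the 53 turned under any alternative, and ARRDC4 was the 1 gene called under every setting that kept all conditions.

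The 62 genes that differ among the treatments were 27 without a batch term, 188 with the replicate block and 52 to 104 without 1 library, with 104 without COX3 replicate 4. The count for the difference between batches was 0 under all 6 alternatives. Among genes not called, the sign turned with the length trend removed for MT-CO2 (-0.066), MT-CYB (-0.052), MT-ATP8 (-0.061) and MT-ND5 (-0.023). It also turned for MT-ND5 in batch 2 alone (-0.062) and for MT-ATP6 without the COX3 (0.020), ATP8 (0.011) or ATP6 treatment (0.0068). Without 1 library, MT-ATP6 ranged from -0.043 to 0.017, MT-ATP8 from -0.026 to 0.15 and MT-ND5 from -0.025 to 0.12; the turns came without control replicate 4 for MT-ATP6, 3 for MT-ATP8 (-0.026) and 1 (-0.025) or 4 (-0.0013) for MT-ND5. The median of the mitochondrial mRNAs was -0.055 with the length trend removed. Counts of a few reads limit the precision of genes such as TDRD5.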
